A study of Mus musculus with 4 samples.

Results

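Ly6 genes encode small surface proteins that sit in the outer leaf of the membrane on a glycosylphosphatidylinositol (GPI) anchor, and 4 of them are described here, Ly6a, Ly6c1, Ly6c2 and Ly6e, out of 54532 genes in the deposited table. They were picked by symbol, through the GENCODE M21 annotation, with earlier results of the comparison of R with vehicle known, so their values in that comparison are a description and carry no test. Total RNA was sequenced from 2 libraries of cells exposed in vitro to R, a name the labels leave unexplained, at 0.5 µM (the unit is spelled "um" there), and from 2 libraries of cells exposed to DMSO as vehicle. All 4 libraries came from cells labelled MSCs that were isolated by digesting unfractionated bone marrow of CB6F1 mice and cultured in high-glucose DMEM with serum, and each title includes aGVHD. The labels do not give the identity of R, how old the mice were, how long treatment lasted, or whether each replicate was its own animal or culture. All p-values therefore describe the spread among these libraries, and that spread may be technical.

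The family is named for lymphocyte antigen 6, and its members share a small disulphide-bonded fold, the LU domain, with the urokinase receptor and CD59. Ly6a is Sca-1, the antigen used with PDGFRα to sort mouse bone marrow stromal progenitors and with Kit to sort mouse blood stem cells. Ly6c1 and Ly6c2 together make up the Ly6C antigen, by which mouse monocytes are divided into Ly6C-high and Ly6C-low cells, and Ly6C is also found on endothelial cells. Ly6e, also called Sca-2 or TSA-1, is a thymocyte antigen that restricts entry of coronaviruses. Interferons are known to raise Ly6a, Ly6c and Ly6e in mouse cells. CB6F1 mice are an F1 hybrid of BALB/c and C57BL/6, strains that carry different Ly6 haplotypes, and the values do not tell the alleles apart.

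The 4 genes lie within 156.92 kb of chromosome 15 in GRCm38. Ly6e (ENSMUSG00000022587) spans 74955051 to 74959905 on the plus strand. Ly6a (ENSMUSG00000075602) spans 74994877 to 74998031, Ly6c1 (ENSMUSG00000079018) spans 75044018 to 75048830 and Ly6c2 (ENSMUSG00000022584) spans 75108158 to 75111970, all on the minus strand. The values sum reads over all annotated exons, whose union is 3784 bases for Ly6e, 1205 for Ly6a, 1677 for Ly6c1 and 2740 for Ly6c2.

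Ly6c1 and Ly6c2 are near copies, so their sequences bear on how reads were assigned. Their coding sequences are each 393 bases long and share 384 of 393 bases, an identity of 97.7%, with the longest identical run at 188 bases. The first 150 coding bases hold 6 of the 9 differences and are shown from GENCODE M21, with capitals at the bases that differ between the pair.
Ly6c1: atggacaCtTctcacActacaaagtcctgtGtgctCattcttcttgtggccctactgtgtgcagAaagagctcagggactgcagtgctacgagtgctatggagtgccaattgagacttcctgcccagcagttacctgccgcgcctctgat
Ly6c2: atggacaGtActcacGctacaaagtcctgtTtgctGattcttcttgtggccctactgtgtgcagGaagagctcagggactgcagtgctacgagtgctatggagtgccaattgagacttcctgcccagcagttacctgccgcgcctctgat

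Identity between coding sequences was lower for the other pairs. It was 81.8% between Ly6a and Ly6c1 and 81.6% between Ly6a and Ly6c2, while Ly6e matched Ly6a at 52.2%, Ly6c1 at 49.5% and Ly6c2 at 50.2%. Of the distinct 50-base stretches in transcripts with a full coding sequence, 0% for Ly6e, 19.0% for Ly6a, 33.4% for Ly6c1 and 31.2% for Ly6c2 also occur in a transcript of another gene. For Ly6c1 most of these are in Ly6c2 (379 of 546), and for Ly6a most are in Ly6c1 (195 of 246). The sources used here do not give the read length or the treatment of reads with several matches, so the values of Ly6a, Ly6c1 and Ly6c2 are less certain than that of Ly6e.

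The 250 bases before the outermost start site of Ly6c1 and of Ly6c2 are shown as well, because the pair differed widely in level. They come from RefSeq (GRCm38.p6), Ly6c1 at chr15:75048838-75049087 and Ly6c2 at chr15:75111972-75112221, both on the minus strand. Over 228 aligned columns 164 bases are identical, 71.9%, and capitals mark bases with no identical partner within the aligned part.
Ly6c1: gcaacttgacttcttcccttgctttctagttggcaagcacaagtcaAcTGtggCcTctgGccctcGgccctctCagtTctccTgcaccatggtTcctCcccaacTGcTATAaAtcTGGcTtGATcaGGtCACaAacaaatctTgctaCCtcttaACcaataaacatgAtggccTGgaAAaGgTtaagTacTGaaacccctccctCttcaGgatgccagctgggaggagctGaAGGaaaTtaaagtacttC
Ly6c2: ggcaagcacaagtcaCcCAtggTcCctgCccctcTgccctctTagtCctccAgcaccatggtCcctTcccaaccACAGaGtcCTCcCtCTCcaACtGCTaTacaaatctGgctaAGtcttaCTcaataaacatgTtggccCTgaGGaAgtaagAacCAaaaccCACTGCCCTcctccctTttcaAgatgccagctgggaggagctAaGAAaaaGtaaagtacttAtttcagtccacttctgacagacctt

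Each window was searched on both strands, with the 50 bases after the start included, for the letters TTCNNNGAA of the gamma-activated site and for the interferon-stimulated response element in the form GAAA, then 2 bases of any kind, then GAAA. Neither was found in any of the 2 windows of Ly6c1 or the 2 of Ly6c2. Over all 32851 windows in the table, 8.30% hold the first and 3.44% the second. The motifs cannot overlap in full and were counted separately, and a missing match says only that these letters are not in these windows.

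In R-treated cells Ly6e, Ly6a and Ly6c1 were all at lower levels than in vehicle cells, and Ly6c2 was at the limit of detection in both. Levels are FPKM, read numbers scaled to gene length and library size, so they can be compared between genes. The order was Ly6e, Ly6a, Ly6c1 and Ly6c2 from high to low in each of the 4 libraries. Ly6e was at 53.5 and 39.4 FPKM in the R libraries (replicates 1 and 2, as throughout), against 217 and 179 FPKM in the vehicle libraries. The mean was 46.4 ± 9.95 FPKM in R (SD, n = 2), against 198 ± 26.6 FPKM in vehicle (SD, n = 2), a level 4.26-fold lower in R. The lowest vehicle library was 3.35-fold above the highest R library, while replicates differed by 1.36-fold in R and 1.21-fold in vehicle.

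Ly6a, the Sca-1 gene, was at 28.4 and 22.0 FPKM in the R libraries and at 90.6 and 78.3 FPKM in the vehicle libraries. The mean was 25.2 ± 4.53 FPKM in R (SD, n = 2), against 84.4 ± 8.70 FPKM in vehicle (SD, n = 2), 3.35-fold lower in R, and the groups did not overlap. Ly6c1 was at 4.14 and 3.82 FPKM in the R libraries and at 26.4 and 22.7 FPKM in the vehicle libraries. Its means, 3.98 ± 0.224 FPKM in R (SD, n = 2) and 24.5 ± 2.60 FPKM in vehicle (SD, n = 2), were 6.16-fold apart, the widest gap of the 3 genes. The R libraries of Ly6c1 differed by 1.08-fold and the vehicle libraries by 1.16-fold.

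Ly6c2, whose product is the main Ly6C antigen of inflammatory monocytes in mice, was listed at 0 in both R libraries and at 0 and 0.0203 FPKM in the vehicle libraries. Recovered reads, obtained by dividing each value by what 1 read is worth, give the counts behind these levels. Ly6c2 had 0 reads in R and 1 read in vehicle, where Ly6c1 had 250 reads in R and 1463 in vehicle. A count of 0 allows up to 3 reads, which is 0.0567 and 0.0605 FPKM in the R libraries. No fold change is given for Ly6c2, since both groups lay under that limit.

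**Figure D1:**
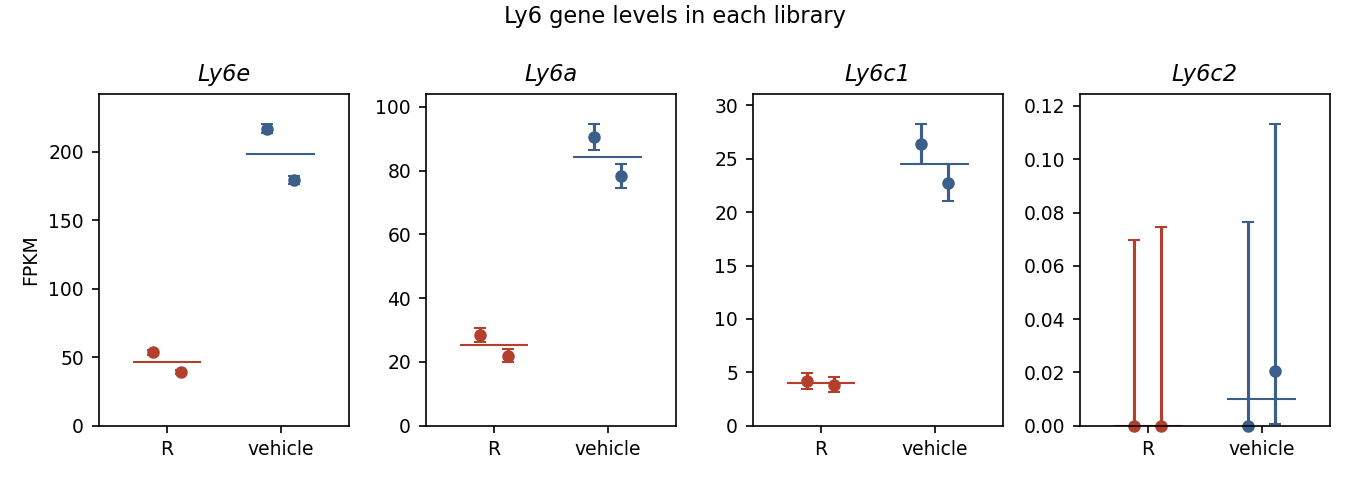
FPKM (vertical axis, from 0, a scale of its own per panel) of Ly6e, Ly6a, Ly6c1 and Ly6c2, with 1 point per library, R left of vehicle, a line at the group mean and bars for the exact Poisson 95% interval of the reads. For Ly6e, Ly6a and Ly6c1 both R points lie below both vehicle points, and for Ly6c2 every point but 1 is at 0.

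The depth behind the other values was larger. Ly6e rested on 3904 and 2696 reads in R and 14466 and 12162 in vehicle. Ly6a rested on 660 and 479 reads in R and 1925 and 1692 in vehicle. Ly6c1 had the fewest, with 134 and 116 reads in R and 780 and 683 in vehicle, and its exact Poisson 95% intervals were 3.47 to 4.90 and 3.16 to 4.59 FPKM in R, against 24.6 to 28.3 and 21.03 to 24.5 FPKM in vehicle. These intervals cover counting error only, as reads without molecular identifiers are not independent molecules. The interval of Ly6c1 in every R library ended below that in every vehicle library.

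In log2(FPKM + 1), a scale that makes changes of low genes look smaller, the difference of R minus vehicle was -2.35 for Ly6c1 (SE 0.131), -2.08 for Ly6e (SE 0.196) and -1.71 for Ly6a (SE 0.169; n = 2 each). Among the 12176 genes tested, those whose mean reached 1 FPKM, these were the 15th, 27th and 49th lowest differences, and the median of all tested genes was 0.00 to 2 decimals. In the limma fit across all tested genes 167 genes, 1.37%, were lower in R and 42, 0.345%, were higher at a Benjamini-Hochberg adjusted p under 0.05. On the TPM scale, with each library rescaled to 1 sum and the filter applied to TPM, 118 were lower and 53 higher of 14774 genes. Voom on recovered reads called 1.89% lower and 0.856% higher, 2.74% in all, of 11564 genes, and limma with a replicate block called 8.29% lower and 7.32% higher, 15.6% in all. Ly6e, Ly6a and Ly6c1 are among the genes called lower. As this contrast was in view when they were chosen, nothing is read from that. Both R values lay below both vehicle values in 25.2% of all tested genes, as they did for Ly6e, Ly6a and Ly6c1. Each of the 3 was above the filter in every library, while Ly6c2 was not tested.

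In these libraries the 3 genes did not differ by the same factor. Ratios within a library do not depend on a scaling factor of the whole library, and they differed between R and vehicle without overlap. Such separation is common with 2 libraries per group, as 25.2% of tested genes lay lower in R without overlap and 22.7% higher. That share was not computed for ratios, and whether the factors differ was not tested. The sequence that Ly6a and Ly6c1 share also bears on their ratio. The ratio of Ly6a to Ly6c1 was 6.85 and 5.75 in R and 3.43 and 3.45 in vehicle. Ly6e to Ly6a was at 1.88 and 1.79 in R and at 2.39 and 2.29 in vehicle, and Ly6e to Ly6c1 was at 12.9 and 10.3 in R and at 8.22 and 7.89 in vehicle. Of the summed FPKM of the 3 genes, Ly6a made up 33.0 and 33.7% in R and 27.1 and 27.9% in vehicle. Ly6c1 made up 4.82 and 5.87% in R and 7.90 and 8.10% in vehicle. Ly6c1 thus took a smaller share in R and Ly6a a larger one, which are unequal differences and say nothing of a gene that did not change.

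**Figure D2:**
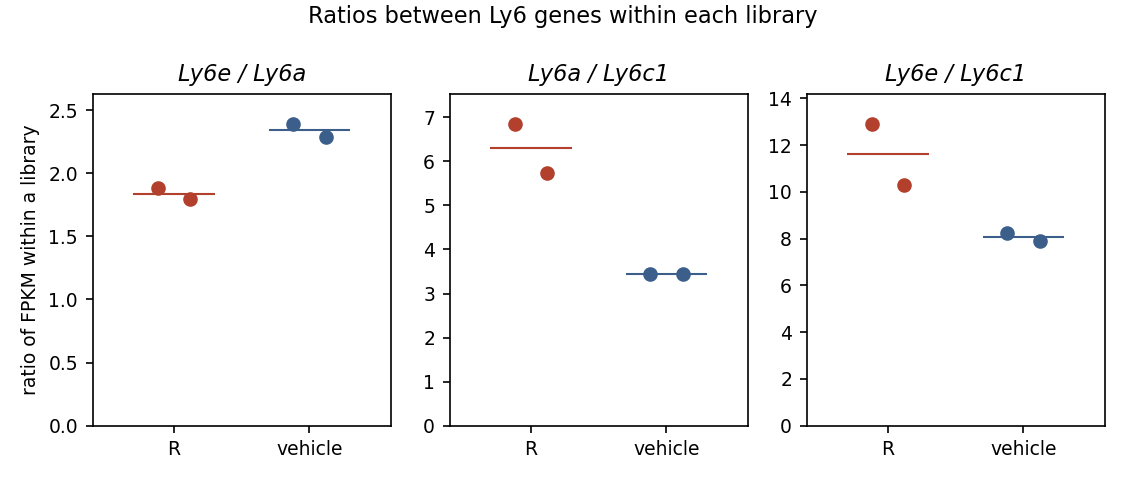
Ratio of FPKM between pairs of Ly6 genes within a library (vertical axis, from 0), with 1 point per library, R left of vehicle, and a line at the group mean. Ly6e over Ly6a was lower in R, at 1.88 and 1.79 against 2.39 and 2.29, and both ratios over Ly6c1 were higher in R.

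The remaining genes of the Ly6 and urokinase receptor family were mostly silent in these cells, and none was called in the fit by group alone. Of 41 such genes in the table, 15 were at 0 in every library, 20 were above 0 with a mean of at most 0.513 FPKM, and 6 were tested. By limma, with p adjusted by Benjamini-Hochberg across every tested gene, 0 of the 6 were called, 2 had an unadjusted p under 0.05, and voom on recovered reads called 0 of 5. Over all tested genes 1.72% were called, and 1947 of 12176, 16.0%, had an unadjusted p under 0.05. The median log2 difference of the 6 was 0.02, with 3 below 0 and 3 above.

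Lynx1, a modulator of nicotinic acetylcholine receptors, had the highest mean over the 4 libraries, though Plaur was higher in both vehicle libraries. It was at 13.3 and 12.4 FPKM in R and 9.68 and 9.70 FPKM in vehicle, a log2 difference of 0.37 (SE 0.115; limma, Benjamini-Hochberg adjusted p = 0.2). Slurp1, a secreted relative that acts on the same receptors, was at 1.89 and 0.999 FPKM in R and 3.03 and 2.38 FPKM in vehicle (log2 difference -0.62, SE 0.219; limma, Benjamini-Hochberg adjusted p = 0.252). Its 3′ end overlaps that of Them6 on the other strand, and without knowledge of strand reads within that overlap cannot be assigned to 1 of them. Neither passed in that fit, though in each the R values lay on 1 side of the vehicle values.

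Plaur, the urokinase receptor, was at 11.6 and 9.21 FPKM in R and 11.3 and 11.99 FPKM in vehicle. Cd59a, an inhibitor of the complement membrane attack complex, was at 11.6 and 8.73 FPKM in R and 8.05 and 10.4 FPKM in vehicle, and its near copy Cd59b at 1.28 and 0.765 FPKM in R and 1.26 and 1.03 FPKM in vehicle. In all 3 the groups overlapped. Bambi, a pseudoreceptor of TGF-beta signalling placed in the list with them, was at 1.36 and 1.09 FPKM in R and 1.08 and 0.907 FPKM in vehicle. Its R values lay just above its vehicle values. None passed limma's test with Benjamini-Hochberg adjustment, where Plaur had an adjusted p = 0.662, Cd59a 0.79, Cd59b 0.853 and Bambi 0.702. Ly6g, the antigen that marks mouse neutrophils, was at 0 in all 4 libraries.

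Genes next to the 4 on chromosome 15 were described in the same way. Between the outer ends of Ly6e and Ly6c2 lie 7 other genes of the table. None of these exceeded 0.293 FPKM in any library, and among them is Ly6i, at 0.049 FPKM in 1 vehicle library and 0 elsewhere. Within 500 kb of a Ly6 gene lie 52 other genes of the table, of which 27 were at 0 in every library and 4 were tested. These were Jrk, Them6, Slurp1 and Lynx1, all at 202 to 246 kb from the nearest of the 4 Ly6 genes. In limma with Benjamini-Hochberg adjustment 0 of the 4 were called, 2 had an unadjusted p under 0.05, namely Slurp1 and Lynx1, and voom also called 0. Jrk, which encodes a nuclear DNA-binding protein, was at 1.22 and 1.36 FPKM in R and 1.24 and 0.962 FPKM in vehicle. Them6 was at 4.07 and 3.84 FPKM in R and 3.178 and 3.03 FPKM in vehicle, with limma's Benjamini-Hochberg adjusted p = 0.364.

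**Figure D3:**
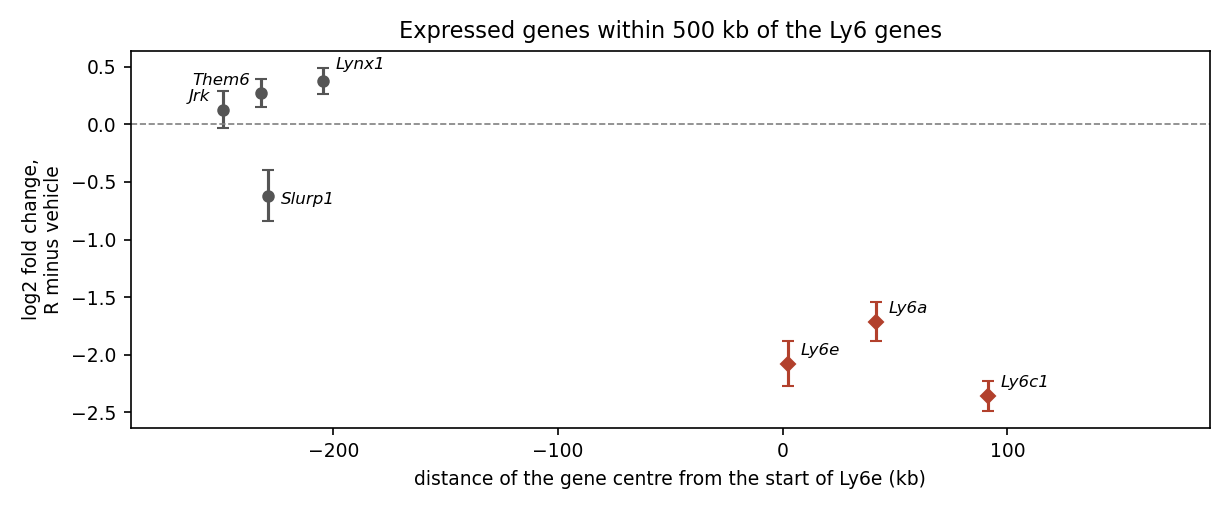
Log2 difference of R minus vehicle in FPKM + 1 (vertical axis) by distance of the gene's centre from the start of Ly6e in kb (horizontal axis), for tested genes within 500 kb, with bars of 1 SE (n = 2 each). Ly6e, Ly6a and Ly6c1 (diamonds) lie between -1.71 and -2.35, and Jrk, Them6, Slurp1 and Lynx1 (circles) between -0.62 and 0.37.

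Ly6 proteins reach the surface through the GPI anchor, which is built in the endoplasmic reticulum and trimmed after attachment. Of 28 tested genes of anchor synthesis and remodelling, limma with Benjamini-Hochberg adjustment called 0, 1 had an unadjusted p under 0.05, and voom called 0 of 25. Their median log2 difference was -0.01, with 14 below 0 and 14 above. The smallest p was that of Tmem8 (also known as Pgap6), which was at 23.6 and 22.3 FPKM in R and 34.7 and 34.2 FPKM in vehicle (limma, Benjamini-Hochberg adjusted p = 0.0928). Pigf and Pigo, both needed to add ethanolamine phosphate to the anchor, had log2 differences of -0.29 and 0.26, and neither passed (limma, Benjamini-Hochberg adjusted p = 0.314 for Pigf and 0.396 for Pigo).

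Other proteins with such an anchor lay on both sides of 0. Of 30 tested genes 0 were called by limma with Benjamini-Hochberg adjustment, against 1.72% of all tested genes. At an unadjusted p under 0.05 were 13 of the 30, a larger share than the 16.0% of all tested genes. The median log2 difference was 0.09, with 10 below 0 and 20 above. Voom called 2 higher and 3 lower of 28, where over all genes it called 0.856% higher and 1.89% lower. Sema7a, a membrane semaphorin, was at 8.45 and 7.83 FPKM in R and 4.38 and 4.73 FPKM in vehicle (limma, Benjamini-Hochberg adjusted p = 0.0546). Bst2, or tetherin, which holds budding virus at the cell surface, was at 163 and 117 FPKM in R and 326 and 302 FPKM in vehicle (limma, Benjamini-Hochberg adjusted p = 0.056). Cd48, an adhesion receptor of blood cells, was at 68.7 and 60.3 FPKM in R and 110 and 106 FPKM in vehicle (limma, Benjamini-Hochberg adjusted p = 0.0705). Bst2 is also in the interferon list.

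Interferon-stimulated genes, a list that does not contain the 4 Ly6 genes, were set beside them. Of 53 tested, 42 fell in limma with Benjamini-Hochberg adjustment, 0 rose, and 50 had an unadjusted p under 0.05. Over all tested genes these shares were 1.37%, 0.345% and 16.0%. The median log2 difference was -1.46, where that of all tested genes was 0.00, and the list was drawn up with earlier results of these data known. Oas2 and Oasl2, of the family that senses double-stranded RNA, and Ifit1, which binds viral RNA, had the smallest p, with log2 differences of -3.58, -3.25 and -3.01 (limma, Benjamini-Hochberg adjusted p = 0.000906 for Oas2, 0.0012 for Oasl2 and 0.00148 for Ifit1). The difference of Ly6c1 was exceeded in size by 10 of the 53, that of Ly6e by 12 and that of Ly6a by 17. By the ratio of vehicle mean to R mean, without a pseudocount, these counts were 19 for Ly6c1, 23 for Ly6e and 28 for Ly6a.

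**Figure D4:**
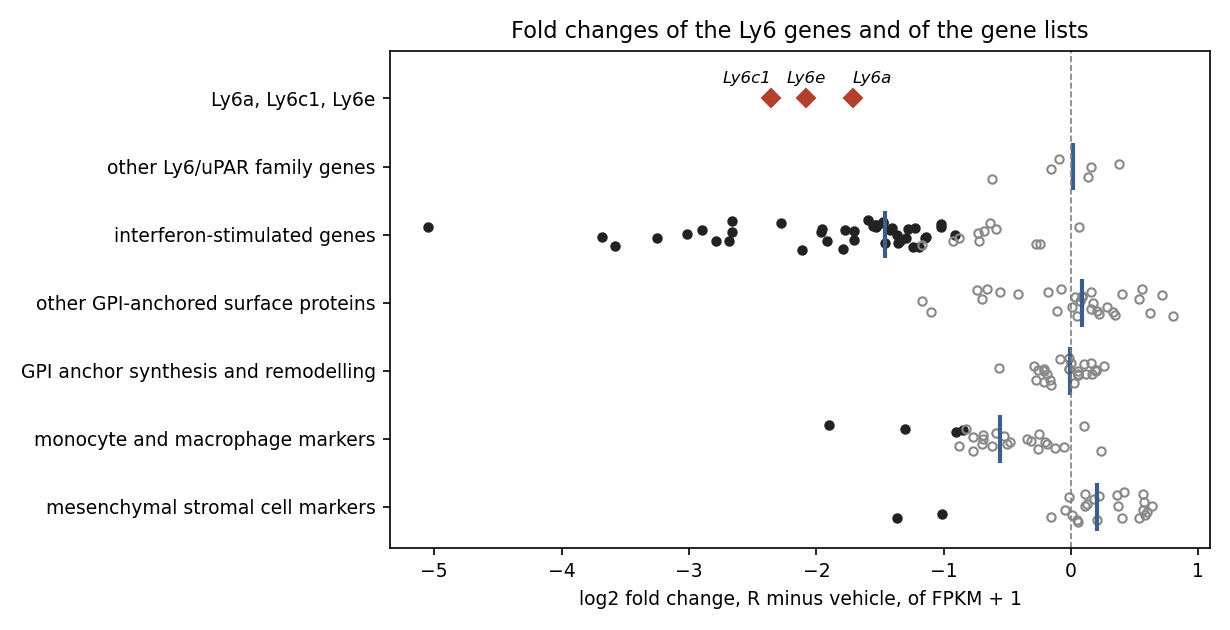
Log2 difference of R minus vehicle in FPKM + 1 (horizontal axis) for Ly6a, Ly6c1 and Ly6e (diamonds, top row) and for tested genes of 6 lists, with filled points for genes called by limma, open points for the rest, and a bar at the list's median. The 3 Ly6 genes lie at -1.71 to -2.35, among the interferon-stimulated genes with their median of -1.46, while the other Ly6 and urokinase receptor family has a median of 0.02.

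Likeness to a Ly6 gene was measured as the Euclidean distance between log2(FPKM + 1) values over the 4 libraries, each gene centred on its mean, among 7150 other genes whose mean reached 5 FPKM. It is a description over 4 points from shared libraries. Nearest to Ly6a were Wfdc17 (distance 0.185), which encodes a small secreted protein of macrophages, Fcgr1, the high-affinity IgG receptor (0.225), and Irf9, a DNA-binding subunit of the complex that type I interferon activates (0.241). Ly6c1 was closest to Cd5l, a secreted protein of macrophages (0.217), Slfn2 of the Schlafen family (0.234) and Phf11b (0.241). For Ly6e they were Phf11b (0.134), Fcgr1 (0.241) and Slfn2 (0.291). The distance between Ly6a and Ly6e was 0.372, between Ly6c1 and Ly6e 0.369 and between Ly6a and Ly6c1 0.668. Cd5l, for example, was at 15.04 and 17.0 FPKM in R and 86.2 and 83.6 FPKM in vehicle.

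Cell types that carry these antigens were followed by marker lists. Most tested macrophage transcripts were lower in R, some of them only slightly. Of 26 tested monocyte and macrophage markers 24 had a log2 difference below 0, with a median of -0.56. Limma with Benjamini-Hochberg adjustment called 4 of the 26 lower, Fcgr1, Ctss, Itgam and Msr1, and 0 higher. Over all tested genes 1.37% were called lower and 0.345% higher. At an unadjusted p under 0.05 were 13 of the 26, against 16.0% of all tested genes. Voom called 5 of 24 lower, against 1.89% of all genes it tested. The summed level of all 30 markers was 17219 and 13219 FPKM in R and 25315 and 22625 FPKM in vehicle. Most of that sum was Lyz2, the lysozyme of myeloid cells, so the sum largely repeats 1 gene. Lyz2 was at 8891 and 7061 FPKM in R and 14569 and 12540 FPKM in vehicle, in cells labelled MSCs. It did not pass (limma, Benjamini-Hochberg adjusted p = 0.321). In bulk RNA fewer cells of a type and less RNA per cell cannot be told apart, and the part of these cells in the Ly6 values was not tested.

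Among genes known from Ly6C-high monocytes, Chil3 and Ccr2, which were chosen after their values were seen, were low, while Lyz2, Fcgr1 and Itgam, also found in such cells, were not. Chil3 was at 0 in every library, and Ccr2, the chemokine receptor of these monocytes, was at 0.207 and 0.155 FPKM in R and 0.47 and 0.528 FPKM in vehicle. Cx3cr1, which is high in Ly6C-low monocytes and macrophages, was also chosen after its values were seen. It was at 11.2 and 11.5 FPKM in R and 10.4 and 8.59 FPKM in vehicle (limma, Benjamini-Hochberg adjusted p = 0.471). It was among the 2 tested monocyte and macrophage markers above 0, where 24 lay below. Spn, of the same list, was at 1.55 and 1.58 FPKM in R and 2.08 and 2.31 FPKM in vehicle (limma, Benjamini-Hochberg adjusted p = 0.345).

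The summed level of 27 mesenchymal stromal markers was 4241 and 4464 FPKM in R and 3343 and 3381 FPKM in vehicle. Most of that sum was Sparc, Col1a1, Fn1 and Col1a2, all higher in R, so it largely repeats these genes. Col1a1, for example, was at 852 and 795 FPKM in R and 532 and 526 FPKM in vehicle. Cxcl12, also high, was at 462 and 514 FPKM in R and 517 and 493 FPKM in vehicle, and its groups overlapped. Of 25 tested, 20 had a log2 difference above 0, with a median of 0.20, and Lum and Dcn, small proteoglycans of the matrix, fell in limma with Benjamini-Hochberg adjustment. Pdgfrb, a receptor of perivascular stromal cells, was at 60.3 and 68.9 FPKM in R and 40.4 and 44.2 FPKM in vehicle (limma, Benjamini-Hochberg adjusted p = 0.112). Pdgfra, the partner of Sca-1 in sorting stromal progenitors, was at 10.7 and 14.9 FPKM in R and 13.9 and 14.6 FPKM in vehicle (limma, Benjamini-Hochberg adjusted p = 0.711), and its groups overlapped. Both R values lay below both vehicle values in 25.2% of all tested genes, Ly6a among them.

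Markers of other cells that bear Ly6 antigens were low. Of 18 endothelial markers 4 were tested and 0 called by limma with Benjamini-Hochberg adjustment (1 at an unadjusted p under 0.05, and voom called 0 of 4), and their summed level was 13.9 and 15.8 FPKM in R and 13.3 and 13.2 FPKM in vehicle. Of the 4 tested, 3 had a log2 difference above 0. Egfl7, a secreted endothelial protein, had the smallest p and was at 3.183 and 2.16 FPKM in R and 1.82 and 1.31 FPKM in vehicle (limma, Benjamini-Hochberg adjusted p = 0.29), and Pecam1 and Plvap followed. Pecam1, an endothelial adhesion molecule, was at 1.06 and 1.12 FPKM in R and 1.43 and 1.13 FPKM in vehicle. Of 16 markers of blood stem and progenitor cells 2 were tested, Cd34 and Hoxa9, and limma with Benjamini-Hochberg adjustment called 0 (1 at an unadjusted p under 0.05), with a sum of 11.6 and 11.3 FPKM in R and 8.52 and 7.71 FPKM in vehicle. Voom called Cd34 higher. Kit was at 0.349 and 0.471 FPKM in R and 0.165 and 0.325 FPKM in vehicle.

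Neutrophil markers summed to 13.7 and 12.5 FPKM in R and 22.3 and 20.98 FPKM in vehicle. Of 20 genes 9 were at 0 throughout, Ly6g, Mpo and Elane among them, and Csf3r, a receptor that monocytes also express, fell in limma with Benjamini-Hochberg adjustment (adjusted p = 0.0479). Camp was the only other tested gene of that list and did not pass. Markers of T, NK and B cells summed to 8.50 and 7.85 FPKM in R and 11.3 and 11.4 FPKM in vehicle, with 11 of 22 at 0, among them Cd3e. Cd79b and Cd4 were the 2 tested genes. Of these limma with Benjamini-Hochberg adjustment called 0, with both at an unadjusted p under 0.05, and voom called 0.

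R replicate 2 stood apart from the other libraries in total level. Its FPKM values summed to 287360, where the other libraries summed to 333130 to 345709, and recovered reads were 16534440 to 18085183 per library. The log2 ratio of R replicate 1 to R replicate 2 fell with exon length across tested genes (Pearson's r = -0.41, across genes, which are not independent replicates), and that of vehicle replicate 1 to vehicle replicate 2 did so as well (r = -0.23). With R replicate 2 left out, the log2 difference was -2.31 for Ly6c1, -1.86 for Ly6e and -1.54 for Ly6a, and with the length trend removed from all libraries it was -2.31, -2.06 and -1.67.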

How the data were processed

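Per the file headers, the deposited values are FPKM, listed by Ensembl identifier for 54532 genes in each of 4 libraries. The submitters' processing notes name GRCm38, mm10 and edgeR 3.18.1 with no role. Aligner, counter and annotation: not given in the sources used here. In GENCODE M21, 54495 identifiers matched and 37 did not. FPKM times union exon length gave whole reads, within 0.02 of a whole number, for 96.3 to 96.4% of values above 0. Reads were whole in all 4 libraries for 53661 genes, which gave the library sizes for voom. Voom tested the 11564 of them whose mean reached 1 FPKM.

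The comparison of R with vehicle used limma 3.58.1 (in R software 4.3.3) on log2(FPKM + 1) for the 12176 genes whose mean reached 1 FPKM, with a variance trend, no further terms and Benjamini-Hochberg adjustment at 0.05. The fit had 2 residual and 3.83 prior degrees of freedom. Coding sequences and promoters were aligned with Biopython 1.88. The limma fit on log2(FPKM + 1) and the removal of the length trend were tested on simulated data, and the other steps were not.

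The 4 genes, the lists and the alternatives were chosen with earlier results of these data known. Named genes were the 4 members, tested family genes and neighbours, the 3 nearest genes in pattern, the 3 genes with the smallest p per list, and Pdgfra, Lyz2 and Ly6g. Some genes that this rule or the lists include are not reported here. Further genes were chosen after their values were seen. Among them were those named for Ly6C-high and Ly6C-low monocytes, those given to show the range within a list, and the markers at 0.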

Additional observations from a re-analysis of the deposited data

How the results depend on the processing

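The log2 differences of Ly6a, Ly6c1 and Ly6e stayed below 0 under all 11 alternatives. Leaving out 1 library gave -1.89 to -1.54 for Ly6a, -2.46 to -2.25 for Ly6c1 and -2.29 to -1.86 for Ly6e. Ly6c1 moved by more than its replicate spread with a pseudocount of 0.1 (-2.59) and with voom on recovered reads (-2.57). For Ly6c2, with 1 read in all, no fold change is reported in any setting, and Bambi gave none in voom, where its reads were not whole.

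Counts over all genes depended on the setting. With no low-value filter, limma found 0 genes higher and 0 lower among 24958, so the Ly6 genes were not called either. Voom called 99 higher, and removing the length trend gave 221 higher and 331 lower. Leaving out 1 library gave 96 to 438 higher and 193 to 665 lower, namely 312 higher and 665 lower without R replicate 1, 438 and 410 when R replicate 2 was left out, 96 and 193 when vehicle replicate 1 was, and 150 and 259 when vehicle replicate 2 was. With 1 library in a group its spread is assumed to be that of the other group. The TPM scale moved the median of all genes by 0.13 and left Ly6a, Ly6c1 and Ly6e at -1.61, -2.40 and -1.96.

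A fit with a replicate block called 891 genes higher and 1009 lower. It also called 2 other family genes, Lynx1 and Slurp1. Same-numbered libraries deviated together (r = 0.35 across genes), but 2 pairs that share only a number do not establish a pairing. Among the 6 tested family genes the sign turned for Cd59a, at -0.060 without R replicate 1 and -0.036 without vehicle replicate 1 in a leave-one-out range of -0.060 to 0.32, and for Cd59b, at 0.086 without R replicate 2 in a range of -0.28 to 0.086. The causes were not tested. Depth limits Ly6c2.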
